A study of Mus musculus with 9 samples.

Results

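Tuft cell genes were followed by RNA-seq in cultured mouse gut organoids, which are epithelial structures grown from gut tissue in a gel. The genes were taken by name, as markers of tuft cells. They are Dclk1, Trpm5, Pou2f3, Il25, Gfi1b, Avil, Alox5, Sh2d6 and Gnat3. Of these 9 genes, 8 had a row among the 23955 gene symbols of the count table, and Sh2d6 was not analysed here. The 9 samples fell into 3 groups of 3. MIN organoids came from APC-mutated normal gut epithelium, Adenoma organoids came from adenomatous polyps of APCmin/+ mice, and Sulindac organoids were Adenoma organoids treated with sulindac, a non-steroidal anti-inflammatory drug (NSAID). All 3 groups therefore carried the germline Apc mutation, and MIN was the tissue next to the tumors and not wild type. The medium of all groups contained Noggin, EGF, bFGF, R-spondin1 and B27. The dose, duration and vehicle of sulindac for these cultures, and the age and sex of the mice, are not given in the sources used here. The study calls the 3 samples of a group biological replicates, but the labels do not say whether each came from a different mouse, and the p-values measure only the spread between these samples.

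Tuft cells are rare chemosensory cells of the gut epithelium. They sense signals in the lumen through a pathway shared with taste cells, in which a receptor activates a G protein with a gustducin subunit, phospholipase C releases calcium from internal stores through inositol trisphosphate receptors, and calcium opens the cation channel Trpm5. The transcription factor Pou2f3 is required for tuft cells to form. In response to parasites and some microbial metabolites, tuft cells release the cytokine Il25 and lipid mediators such as leukotrienes, which act on innate lymphoid cells below the epithelium, and the cytokines these cells release in turn increase the number of tuft and goblet cells. Organoids are grown from epithelium, without the lymphoid cells of this circuit.

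Dclk1 and Avil are the members with a promoter sequence that passed the test between Adenoma and MIN, in opposite directions, and the promoter window of each is shown for that reason. Each window runs from 250 bases before to 50 bases after the annotated start, is given 5′ to 3′ on the gene's strand, and is taken from RefSeq on GRCm38.p6. RefSeq held a window for Dclk1, Trpm5, Gfi1b, Avil, Alox5, Sh2d6 and Gnat3. The Dclk1 window at chr3:55242114-55242413 on the plus strand holds the TCF/LEF motif CTTTGAT, the letters bound by the transcription factors of the Wnt pathway, with its first base 153 bases before the start. The Avil window at chr10:127000459-127000758 on the plus strand holds the GFI motif AATCACNGC as its reverse complement, starting 51 bases before the start. Capitals mark these matches.
Dclk1: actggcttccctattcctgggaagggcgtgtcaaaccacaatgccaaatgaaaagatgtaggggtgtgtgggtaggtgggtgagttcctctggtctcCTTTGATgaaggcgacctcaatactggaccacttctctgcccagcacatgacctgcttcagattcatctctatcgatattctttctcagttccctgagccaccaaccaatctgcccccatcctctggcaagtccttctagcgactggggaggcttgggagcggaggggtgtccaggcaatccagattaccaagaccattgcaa
Avil: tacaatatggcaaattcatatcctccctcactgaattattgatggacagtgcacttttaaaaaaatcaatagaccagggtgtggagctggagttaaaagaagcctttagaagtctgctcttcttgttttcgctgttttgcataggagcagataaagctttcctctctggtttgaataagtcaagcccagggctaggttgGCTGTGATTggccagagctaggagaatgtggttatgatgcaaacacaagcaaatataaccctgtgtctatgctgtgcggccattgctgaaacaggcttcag
Motifs were searched on both strands, together with the POU octamer ATGCAAAT. Among 32851 promoter windows of the same length, 3.73% held CTTTGAT, 0.919% held AATCACNGC and 1.74% held ATGCAAAT. The second Dclk1 window, at chr3:55461478-55461777, and the windows of Trpm5, Gfi1b, Alox5, Sh2d6 and Gnat3 held none of these letters. A match describes the letters in the window and not a bound site.

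Total counts per sample ranged from 30881206 to 48412477. At this depth 3 counts, the most that a count of 0 allows and used here as the floor, correspond to 0.0641 to 0.1 CPM, that is, counts scaled to a common library size of 1e6. The epithelial markers Epcam, Cdh1, Krt8 and Vil1 summed to 4023 to 5589 CPM in MIN, 2157 to 2543 in Adenoma and 2811 to 3361 in Sulindac. CPM values below are normalized by TMM over all 9 samples. Fold changes are from edgeR's quasi-likelihood test on the 2 groups compared, with Benjamini-Hochberg adjustment over all genes tested, and a gene was called at a false discovery rate of 1%, the study's own threshold. By this test 3 of the 4 epithelial markers, Cdh1, Krt8 and Vil1, were lower in Adenoma than in MIN, beside 20.1% of all genes. Their part in the tuft gene results was not tested.

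Transcription factors were examined before the genes that act downstream of them. Pou2f3, which specifies the tuft lineage, was expressed at 3.28, 3.55 and 3.4 CPM in the MIN replicates, at 0.309, 0.615 and 0.463 CPM in the Adenoma replicates and at 0.267, 0.245 and 0.145 CPM in the Sulindac replicates. The MIN samples lay within a narrow range, far above all 6 adenoma-derived samples, and no group overlapped another. Pou2f3 was 7.31-fold lower in Adenoma than in MIN (log2 fold change -2.87 ± 0.30 SE, n = 3 per group, adjusted p = 6.94e-05 by edgeR). The change between Sulindac and Adenoma was -1.07 ± 0.43 SE on the log2 scale and was not called (adjusted p = 0.0861 by edgeR). Fewer tuft cells and less RNA per tuft cell cannot be told apart in such bulk samples, for this gene and for those that follow. Gfi1b, a transcriptional repressor of tuft and some blood cells, had 0, 1 and 3 counts in MIN, 2, 0 and 1 in Adenoma and 1, 0 and 0 in Sulindac. It was therefore at or under the floor in all 9 samples and gave no comparison.

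The taste-type pathway was represented by its channel and its G protein. Trpm5 was measured at 2.29, 3.27 and 4.58 CPM in MIN, 0.927, 1.98 and 1.42 CPM in Adenoma and 0.6, 0.428 and 0.349 CPM in Sulindac. The 3 groups did not overlap, and the order was MIN, then Adenoma, then Sulindac. The fitted difference of Adenoma from MIN was -1.22 ± 0.36 SE on the log2 scale and did not pass the threshold (adjusted p = 0.0199 by edgeR), although it did with DESeq2 (adjusted p = 0.00423). That of Sulindac from Adenoma was -1.65 ± 0.38 SE and narrowly missed it (adjusted p = 0.0118 by edgeR). Without Adenoma replicate 1, the lowest of its group, the second difference was -1.88 and was called (adjusted p = 0.00814 by edgeR). Sulindac compared with MIN was 7.36-fold lower and was called (log2 fold change -2.88 ± 0.36 SE, adjusted p = 0.000152 by edgeR). Of the 50-base stretches in Trpm5 transcripts, 2.57% also occur in other genes. Tssc4, which overlaps Trpm5 on the other strand, shares the most. The strand setting of the counting is not given in the sources used here. Tssc4 itself was 0.49 ± 0.15 SE log2 units above MIN in Adenoma (adjusted p = 0.0205 by edgeR, not called) and lower in Sulindac than in Adenoma (-0.62 ± 0.11 SE, adjusted p = 0.00421 by edgeR). Gnat3, the gustducin alpha subunit, had 0 counts in all 9 samples, which allows up to 3 counts in each.

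Dclk1, a microtubule-associated kinase widely used to mark tuft cells, fell most of the 4 members tested between Adenoma and MIN. Its counts were 76, 112 and 188 in MIN, 7, 8 and 1 in Adenoma and 1, 1 and 0 in Sulindac, and in CPM these were 1.85, 2.39 and 5.12, then 0.197, 0.223 and 0.0289, then 0.0333, 0.0306 and 0. MIN stood above both other groups in every sample, while Adenoma replicate 3 lay in the range of the Sulindac samples. Dclk1 was 20.3-fold lower in Adenoma than in MIN (log2 fold change -4.34 ± 0.62 SE, adjusted p = 0.000433 by edgeR). It was also called lower in Sulindac than in MIN (log2 fold change -7.02 ± 0.73 SE, adjusted p = 5.18e-05 by edgeR). Since the Sulindac samples hold 2 counts together, the size of that change is better given as a ratio of summed counts scaled to library size, 146 with a 95% exact binomial interval of 40.3 to 1214. Between Adenoma and Sulindac, Dclk1 was too low for the low-count filter of the test, and the ratio of Adenoma to Sulindac was 7.33 (95% exact binomial interval 1.72 to 65.7, for counting error only) with overlapping groups. Dclk1 entered the test of Adenoma and MIN only through its MIN samples, so a gene at this level could enter only where it was high in MIN.

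Avil encodes advillin, an actin-binding protein of the villin family found in tuft cells and sensory neurons, and it moved opposite to Dclk1 and Pou2f3. It was measured at 2.53, 2.16 and 3.7 CPM in MIN, 5, 6.45 and 7.28 CPM in Adenoma and 6.1, 7.06 and 16 CPM in Sulindac. Every adenoma-derived sample lay above every MIN sample, and Sulindac replicate 3 lay apart from the other 8. Avil was 2.23-fold higher in Adenoma than in MIN (log2 fold change 1.16 ± 0.26 SE, adjusted p = 0.00563 by edgeR). The call held in 2 of 6 fits that left out 1 sample. It was lost without MIN replicate 1 (1.09, adjusted p = 0.0244), MIN replicate 2 (1.00, adjusted p = 0.025), Adenoma replicate 2 (1.14, adjusted p = 0.0179) or Adenoma replicate 3 (1.04, adjusted p = 0.0206), each by edgeR. Sulindac and Adenoma overlapped, with a difference of 0.65 ± 0.35 SE on the log2 scale (adjusted p = 0.189 by edgeR) that was 0.08 without Sulindac replicate 3. Against MIN, Avil was 3.48-fold higher in Sulindac (log2 fold change 1.80 ± 0.40 SE, adjusted p = 0.00434 by edgeR), a call lost without MIN replicate 1 (1.74, adjusted p = 0.0196 by edgeR) or MIN replicate 2 (1.64, adjusted p = 0.021 by edgeR), and the change was 1.24 without Sulindac replicate 3. Avil shares 3.48% of its 50-base stretches with Tsfm on the other strand. Tsfm went the other way, being lower in Adenoma than in MIN (log2 fold change -0.69 ± 0.14 SE, adjusted p = 0.00283 by edgeR).

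The effector genes were near or under the floor. Alox5, the lipoxygenase that starts leukotriene synthesis, had 7, 5 and 4 counts in MIN, 2, 0 and 0 in Adenoma and 0 in each Sulindac sample. MIN did not overlap either group. The ratio of MIN to Adenoma was 6.8 (95% exact binomial interval 1.6 to 61), and Alox5 was at least 1.38-fold lower in Sulindac than in MIN when 3 counts per library are set for the zeros. Il25, the cytokine by which tuft cells signal to innate lymphoid cells, had 0 counts in every MIN and Sulindac sample and 2, 1 and 2 counts in the Adenoma samples. All 9 values were at or under the floor, so that a difference in Il25 was not detectable at this depth.

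**Figure D1:**
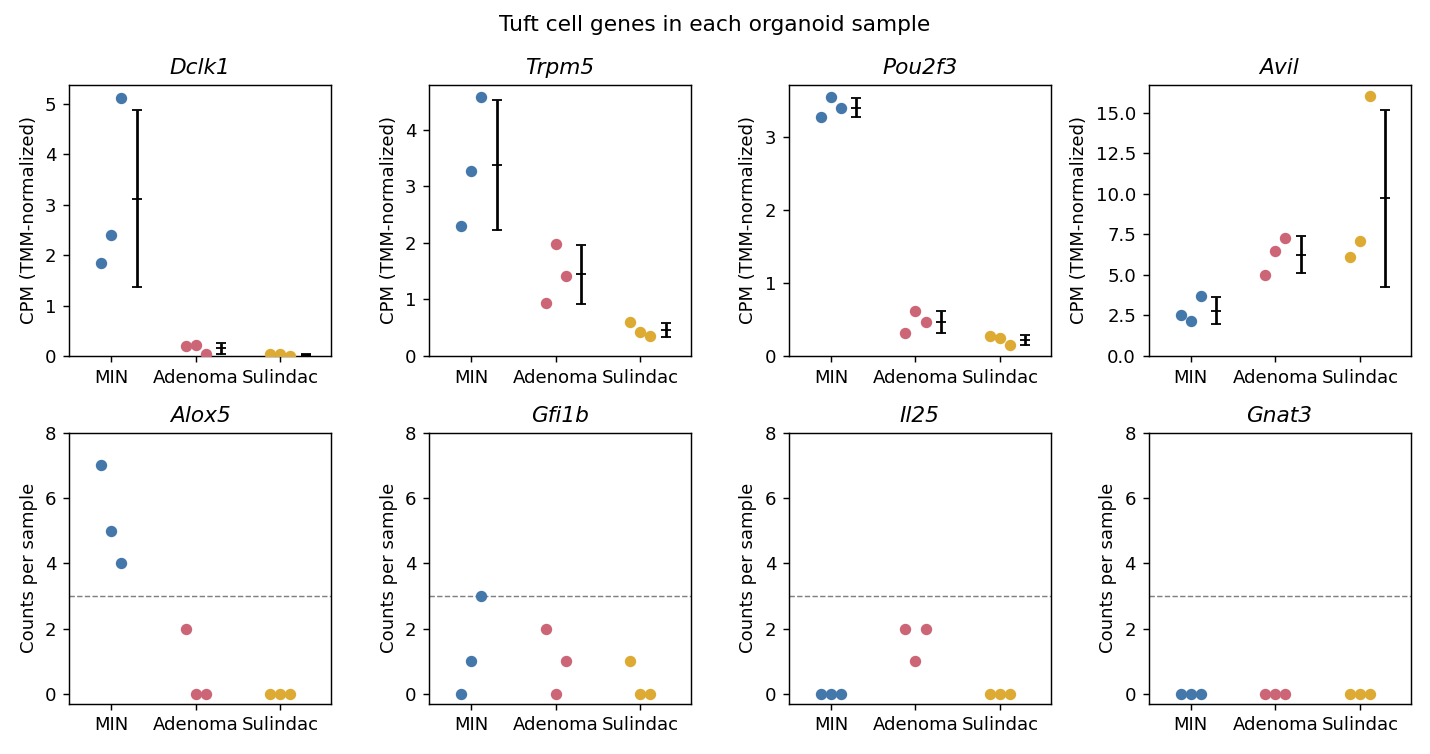
Tuft cell genes by sample, with MIN in blue, Adenoma in red and Sulindac in yellow and 3 samples per group. The upper panels give CPM normalized by TMM with the mean and SD beside the points, and the lower panels give raw counts, with a dashed line at 3 counts. Dclk1 and Pou2f3 stand high in MIN alone, Trpm5 steps down from MIN to Adenoma to Sulindac, Avil is lowest in MIN, and Gfi1b, Il25 and Gnat3 stay on or under the line.

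Of the 8 members with a row, 4 passed the low-count filter for Adenoma and MIN, namely Dclk1, Trpm5, Pou2f3 and Avil. Among them, 2 were called lower, against 20.1% of all 13744 genes tested, and 1 was called higher, against 18.5% of all genes, with 38.7% called in either direction. Their median log2 fold change was -2.05, and that of all genes tested was -0.01. Dclk1 entered this test through MIN alone, so the median of these 4 members is given only as a description. Between Sulindac and Adenoma, 3 members were tested and edgeR called 0 of them. The background was 9.1% of 12962 genes lower and 8.32% higher, or 17.4% in either direction. At an unadjusted p under 0.05, Trpm5 and Pou2f3 passed, as did 44.7% of all genes, and the DESeq2 Wald test called 1 member, Trpm5, at an adjusted p of 0.00358. Between Sulindac and MIN, 3 of the 4 members tested were lower and Avil was higher, against 26.8% and 23% of 13551 genes, or 49.7% in either direction. Dclk1 and Pou2f3 entered that test through MIN alone, as Pou2f3 entered the test of Sulindac and Adenoma through Adenoma alone, so the counts of members are given as a description. The comparisons of Adenoma with MIN and of Sulindac with Adenoma share the Adenoma samples, and a low or high Adenoma value enters both with opposite sign.

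Levels can be set against each other between genes only per length of transcript. Per kilobase of merged exons (GENCODE M21), the members of MIN ran from Pou2f3 at 1.1 CPM per kb and Avil at 0.823, through Trpm5 at 0.528 and Dclk1 at 0.204, to Alox5 at 0.0313. In Adenoma the order was Avil at 1.84 CPM per kb, Trpm5 at 0.225, Pou2f3 at 0.15 and Dclk1 at 0.00978. In Sulindac it was Avil at 2.86 CPM per kb, Trpm5 at 0.0717 and Pou2f3 at 0.0708. Pou2f3 was thus above Avil in MIN and below Avil and Trpm5 in Adenoma. These orders leave out the members with no sample above the floor in that group, whose levels cannot be ranked. Trpm5 and Pou2f3 were neighbours in Sulindac and differed by less than the spread of either, with 0.459 ± 0.128 CPM for Trpm5 and 0.219 ± 0.0646 CPM for Pou2f3 (SD, n = 3) before division by 6.4 and 3.09 kb.

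The samples also differed among themselves within MIN. Dclk1 and Trpm5 were lowest in MIN replicate 1 and highest in MIN replicate 3, with ratios of 2.77 and 2 in CPM between these samples, whereas Pou2f3 had a ratio of 1.04. Of the wider list described next, 16 of 40 genes tested had the same order (40%), compared with 22.7% of all 13744 genes. Rgs13 had the ratio 3.21, Lrmp 3.08 and Spib 2.2, but 1810046K07Rik had 1.04, Hpgds 1.15, Matk 0.846 and Tspan6 0.837. The genes with the same order also included Ptgs1, Hmx2 and Nebl, which were called higher in Adenoma than in MIN. The median ratio over all genes tested was 1. These shares describe 3 libraries and have no replicate check.

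A wider list of 52 tuft genes from the field, in 6 roles, was counted in the same fits, and 51 had a row. Some of them were expressed far above the members. Mean levels in MIN were 551 CPM for Krt18, 465 for Cd24a and 349 for Itpr3, against 3.41 for Pou2f3, the highest member. How much of the value of each gene came from tuft cells was not tested. In Adenoma compared with MIN, 40 were tested, of which 12 were higher, 9 were lower and 19 were not called, and the median log2 fold change was 0.09. The background is as above, 18.5% of all genes higher and 20.1% lower, and the median of all genes was -0.01. The list had calls in both directions, as did the members, and its median was near 0. Of these 40 genes, 10 entered the test through MIN alone and 5 through Adenoma alone. Among those called higher, Gng13, Ptgs1, Hmx2 and Nebl entered through Adenoma alone. Among those called lower, Matk, Lrmp, Kctd12 and Tspan6 entered through MIN alone, so the counts are given as a description.

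Genes of taste-type signaling were mixed. Of 11 genes, 7 were tested between Adenoma and MIN and 2 were called, both higher, beside 18.5% of all genes higher and 38.7% in either direction. Itpr2, an inositol trisphosphate receptor, was 2.46-fold higher (log2 fold change 1.30 ± 0.21 SE, adjusted p = 0.000776 by edgeR). Gng13, the gamma subunit that pairs with gustducin, had 3, 3 and 2 counts in MIN, 13, 12 and 22 in Adenoma and 21, 20 and 23 in Sulindac (log2 fold change 2.73 ± 0.48 SE for Adenoma over MIN, adjusted p = 0.00142 by edgeR). Its value is uncertain, since 43% of its 50-base stretches also occur in other genes, Chtf18 on the other strand first among them. Chtf18 itself was not called (-0.36 ± 0.16 SE, adjusted p = 0.0844 by edgeR). Plcb2, the phospholipase of the pathway, had 9, 15 and 22 counts in MIN, 1, 7 and 0 in Adenoma and 3, 2 and 0 in Sulindac, and was too low to be tested. Rgs13, a regulator of G protein signaling, had 15, 44 and 43 counts in MIN, 6, 18 and 4 in Adenoma and 3, 3 and 4 in Sulindac. It was called lower in Sulindac than in MIN (log2 fold change -2.96 ± 0.56 SE, adjusted p = 0.0017 by edgeR) and not in Adenoma (-1.63 ± 0.61 SE, adjusted p = 0.051 by edgeR). Rgs13 entered the test of Sulindac and MIN through MIN alone, so a gene at this level could enter only where it was high in MIN.

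Eicosanoid synthesis, which makes prostaglandins and leukotrienes from arachidonic acid, held the largest increase of the wider list between Adenoma and MIN. Ptgs1, which encodes cyclooxygenase 1, an enzyme that NSAIDs inhibit, was measured at 0.243, 0.342 and 0.572 CPM in MIN, 35.2, 42.8 and 40.1 CPM in Adenoma and 22.5, 28.5 and 39 CPM in Sulindac. The 6 adenoma-derived samples were all far above MIN. The increase in Adenoma was 103-fold (log2 fold change 6.69 ± 0.26 SE, adjusted p = 2.36e-07 by edgeR), and Sulindac and Adenoma overlapped (-0.38 ± 0.19 SE, adjusted p = 0.153 by edgeR). Pla2g4a, the phospholipase that releases arachidonic acid, was measured at 36.4, 39.6 and 21.6 CPM in MIN, 8.2, 3.32 and 3.84 CPM in Adenoma and 62.7, 50.7 and 53.9 CPM in Sulindac. It was lowest in Adenoma, without overlap of any groups. It was 6.32-fold lower in Adenoma than in MIN (log2 fold change -2.66 ± 0.37 SE, adjusted p = 0.000361 by edgeR) and 10.9-fold higher in Sulindac than in Adenoma (3.45 ± 0.32 SE, adjusted p = 0.000255 by edgeR). Both comparisons use the same Adenoma samples, and that of Sulindac with MIN, which does not, was 0.77 ± 0.21 SE and not called (adjusted p = 0.0135 by edgeR), but was called without MIN replicate 2 (0.94, adjusted p = 0.00952) or MIN replicate 3 (0.55, adjusted p = 0.00175). Ltc4s, the leukotriene C4 synthase, which shares 15.2% of its stretches with other genes, was higher in Adenoma (1.95 ± 0.41 SE, adjusted p = 0.00373 by edgeR), a call lost without MIN replicate 1 (1.77, adjusted p = 0.0172), MIN replicate 2 (1.79, adjusted p = 0.0181) or Adenoma replicate 3 (1.55, adjusted p = 0.0124). Alox5ap, the partner protein of Alox5, was not called (-0.84 ± 0.42 SE, adjusted p = 0.124 by edgeR), with 13, 31 and 26 counts in MIN, 9, 10 and 14 in Adenoma and 4, 10 and 6 in Sulindac. Hpgds was called lower in Adenoma than in MIN (-1.41 ± 0.33 SE, adjusted p = 0.00707 by edgeR). That call held in 1 of 6 fits that left out 1 sample. Hpgds was also called lower in Sulindac than in MIN, a test it entered through MIN alone. Of the 5 genes of this role, 2 were called higher and 2 lower in Adenoma than in MIN, beside 18.5% and 20.1% of all genes.

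Receptors of the type 2 circuit were expressed in all groups. Il13ra1, a subunit of the receptor for IL-13, was 2.28-fold lower in Adenoma than in MIN (log2 fold change -1.19 ± 0.11 SE, adjusted p = 4.11e-05 by edgeR). Il4ra, its partner subunit, had 27, 26.3 and 28.9 CPM in MIN, 25.9, 22 and 25.4 CPM in Adenoma and 54.5, 41 and 45.7 CPM in Sulindac. It was 1.95-fold higher in Sulindac than in Adenoma (log2 fold change 0.96 ± 0.14 SE, adjusted p = 0.00146 by edgeR). The group of MIN and that of Adenoma lay close together, and Il4ra was not called between them (-0.16 ± 0.12 SE, adjusted p = 0.266 by edgeR). Tslp, an epithelial cytokine, and Chat, which makes acetylcholine, had at most 3 counts in any sample.

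Among transcription factors of the wider list, Hmx2, a homeobox gene, had 2, 3 and 11 counts in MIN, 53, 48 and 67 in Adenoma and 52, 58 and 55 in Sulindac, and was 11.9-fold higher in Adenoma than in MIN (log2 fold change 3.57 ± 0.56 SE, adjusted p = 0.000742 by edgeR). 1810046K07Rik, whose product is a coactivator of Pou2f3, had 28, 30 and 26 counts in MIN, 8, 16 and 13 in Adenoma and 1 in each Sulindac sample. Sulindac stood below both groups without overlap. The gene was lower in Sulindac than in MIN (log2 fold change -4.31 ± 0.46 SE, adjusted p = 6.06e-05 by edgeR), with a ratio of MIN to Sulindac of 21.8 (95% exact binomial interval 7.21 to 108). Against Adenoma it was too low for the filter, and the ratio of Adenoma to Sulindac was 11.3 (95% exact binomial interval 3.58 to 57.3). Spib, an ETS family factor, had 28, 43 and 55 counts in MIN, 8, 21 and 20 in Adenoma and 5, 1 and 4 in Sulindac, and was called lower in Sulindac than in MIN (log2 fold change -3.27 ± 0.55 SE, adjusted p = 0.000868 by edgeR) and not in Adenoma (-1.14 ± 0.45 SE, adjusted p = 0.062 by edgeR). Spib and 1810046K07Rik each entered the test of Sulindac and MIN through MIN alone, so these calls are given as a description.

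Adaptors and kinases, many of them known from blood cells as well, included 13 genes tested between Adenoma and MIN, of which 4 were lower and 2 higher, beside 20.1% and 18.5% of all genes. Lrmp, a membrane protein of the endoplasmic reticulum, had 24, 51 and 66 counts in MIN, 4, 4 and 6 in Adenoma and 0, 4 and 1 in Sulindac (log2 fold change -3.09 ± 0.53 SE for Adenoma over MIN, adjusted p = 0.00118 by edgeR). Plcg2, a phospholipase C, fell 3.1-fold from 21.7 ± 2.36 to 6.97 ± 0.441 CPM (SD, n = 3 per group, adjusted p = 2.52e-05 by edgeR). Vav1, a guanine nucleotide exchange factor, went the other way from Lrmp and Plcg2, with 1.12, 0.556 and 1.69 CPM in MIN, 3.59, 5.84 and 7.43 CPM in Adenoma and 1.57, 1.9 and 2.04 CPM in Sulindac. It was 5.06-fold higher in Adenoma than in MIN (log2 fold change 2.34 ± 0.43 SE, adjusted p = 0.00173 by edgeR) and 3.03-fold lower in Sulindac than in Adenoma (-1.60 ± 0.28 SE, adjusted p = 0.00371 by edgeR). The second call was lost without Adenoma replicate 2 (-1.57, adjusted p = 0.0126), Sulindac replicate 1 (-1.51, adjusted p = 0.0191), Sulindac replicate 2 (-1.61, adjusted p = 0.0164) or Sulindac replicate 3 (-1.69, adjusted p = 0.0165).

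Surface and cytoskeleton genes held the most extreme values. Kctd12, which encodes an auxiliary subunit of the GABA-B receptor, had 358, 399 and 451 counts in MIN, 0 in each Adenoma sample and 0, 0 and 1 in Sulindac, and Tspan6, a tetraspanin, had 127, 103 and 95, then 0 in each, then 0, 0 and 1. Kctd12 was at least 116-fold lower in Adenoma and Tspan6 at least 30.9-fold lower, with 3 counts per library set for the zeros (adjusted p = 7.4e-06 and 3.5e-05 by edgeR). Of the 50-base stretches of Kctd12, 62% also occur in other genes, Gm26778 on the other strand first among them, so its value in MIN is uncertain. Nebl, an actin-binding protein, had 2, 3 and 9 counts in MIN, 332, 438 and 175 in Adenoma and 356, 339 and 411 in Sulindac, a 76.1-fold increase in Adenoma (log2 fold change 6.25 ± 0.56 SE, adjusted p = 2.81e-05 by edgeR). Ly6g6d, a Ly6 family surface protein that shares 14.9% of its stretches with other genes, Ly6g6e first among them, was 6.82-fold higher in Adenoma (log2 fold change 2.77 ± 0.31 SE, adjusted p = 0.000114 by edgeR). Krt23, a keratin, was measured at 42.6, 49.4 and 128 CPM in MIN, 279, 251 and 357 CPM in Adenoma and 128, 121 and 117 CPM in Sulindac. It was called higher in Adenoma than in MIN (2.02 ± 0.39 SE, adjusted p = 0.00245 by edgeR), a call lost without Adenoma replicate 3 (1.86, adjusted p = 0.0176), and was 2.41-fold lower in Sulindac than in Adenoma (-1.27 ± 0.13 SE, adjusted p = 0.0004 by edgeR). Tuba1a was also higher in Adenoma (3.44 ± 0.42 SE, adjusted p = 0.00017 by edgeR), but 75.5% of its 50-base stretches also occur in other genes, Tuba1c first among them, so its value is uncertain.

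**Figure D2:**
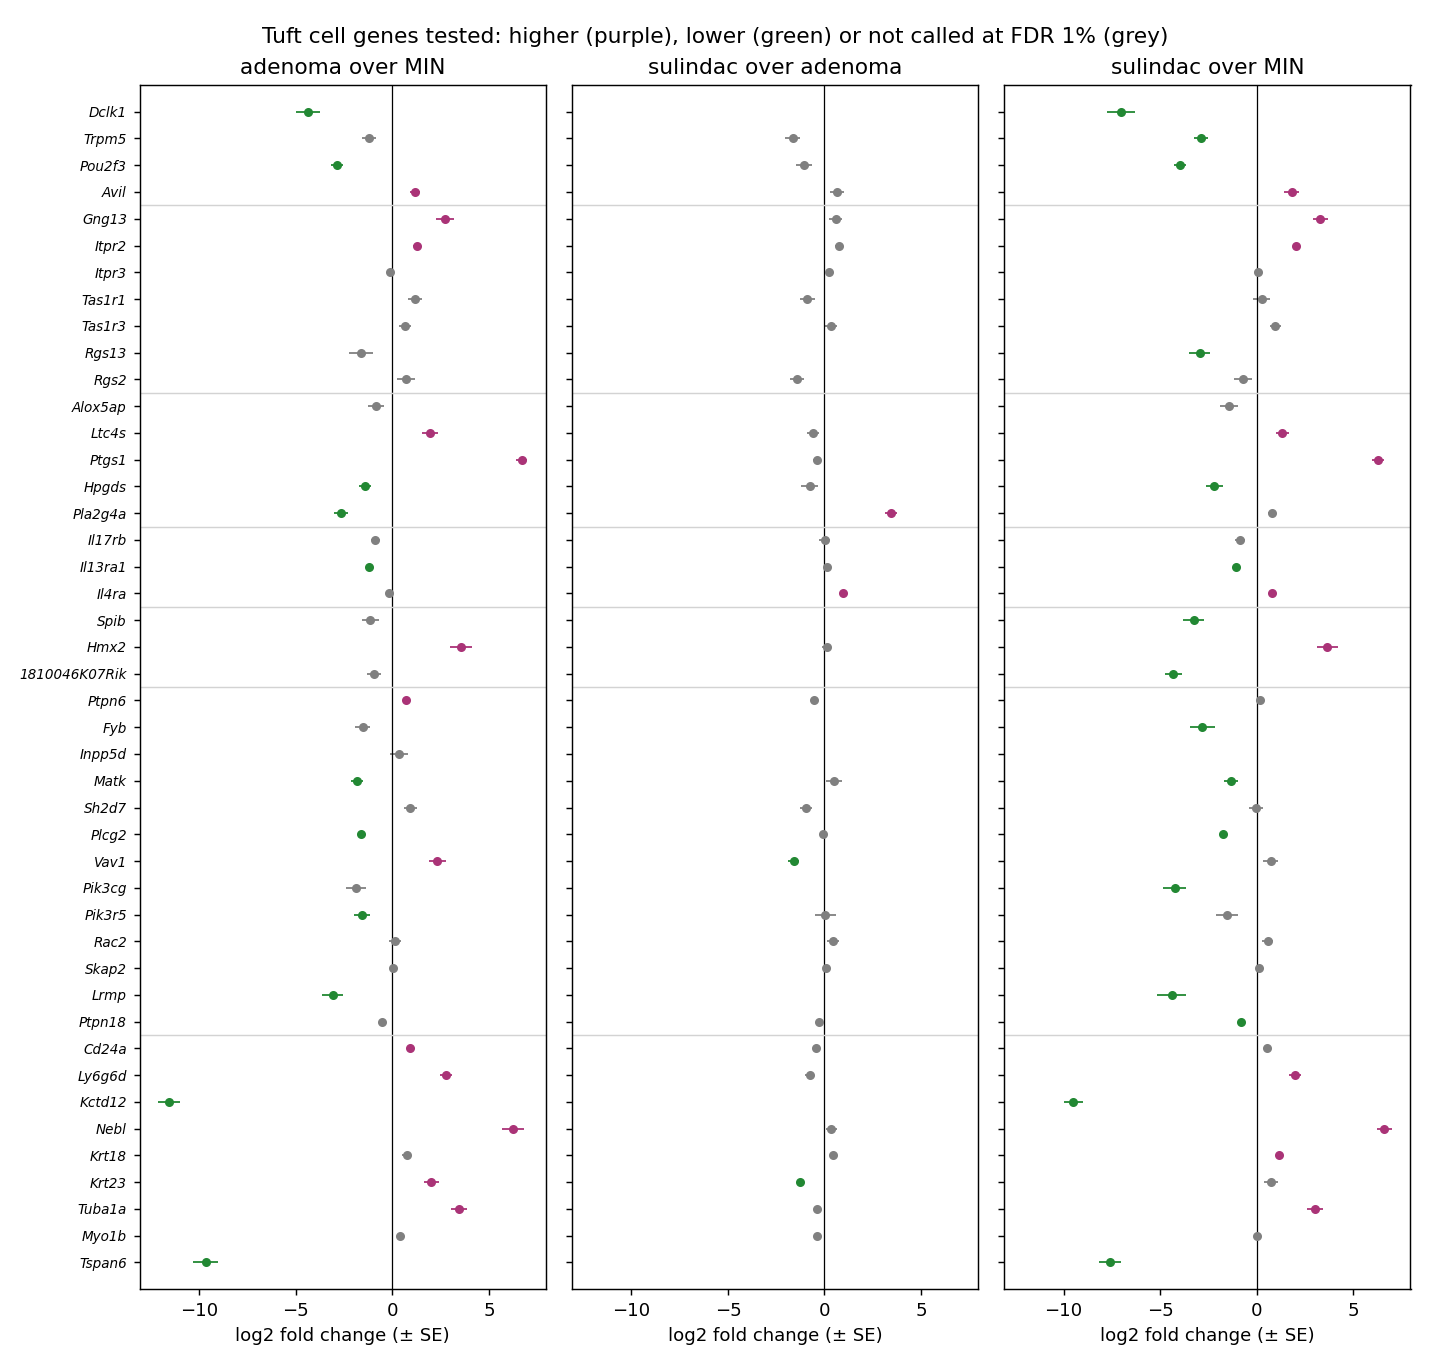
Log2 fold change with its SE for each tuft cell gene tested, in Adenoma over MIN, Sulindac over Adenoma and Sulindac over MIN, with 3 samples per group. The 4 members stand at the top, followed by the 6 roles of the wider list separated by lines, and a missing point was too low to be tested. Dclk1 and Pou2f3 lie to the left of 0 and Avil to the right in the first panel, and 4 genes of the middle panel are called.

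Most genes of the wider list were not called after sulindac, as was the case for all genes. Of 30 tested between Sulindac and Adenoma, 2 were higher (Pla2g4a and Il4ra), 2 were lower (Vav1 and Krt23) and 26 were not called, with a median log2 fold change of -0.04. The background was 17.4% of all genes called in either direction, so these counts are no result about the list. At an unadjusted p under 0.05, 14 of the 30 passed, beside 44.7% of all genes, and DESeq2 called 8. When libraries were scaled by their size without TMM, the split of all genes called moved from 1078 higher and 1179 lower to 603 higher and 1983 lower, and the median of all genes from -0.01 to -0.18. Between Sulindac and MIN, 39 genes were tested, of which 10 were higher and 13 were lower, beside 23% and 26.8% of all genes. Of the 39, 12 entered the test through MIN alone, among them Rgs13, Spib, 1810046K07Rik and Pik3cg, and 4 through Sulindac alone, so the counts are given as a description. Pik3cg, a phosphoinositide kinase of leukocytes and tuft cells, joined those lower, with 26, 45 and 34 counts in MIN, 11, 11 and 2 in Adenoma and 0, 2 and 2 in Sulindac (log2 fold change -4.25 ± 0.58 SE, adjusted p = 0.000264 by edgeR).

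Markers of the other secretory and absorptive cells moved between the same groups, and their part in the tuft gene results was not tested. All 9 enteroendocrine markers, such as Chga and Cck, were lower in Adenoma than in MIN, and their summed level was 334 to 615 CPM in MIN, 2.39 to 4.25 in Adenoma and 1.11 to 1.97 in Sulindac. All 6 goblet cell markers were lower, with sums of 1836 to 2057, 122 to 229 and 57.2 to 119 CPM. Of 6 Paneth cell markers 5 were lower, with sums of 15351 to 18299, 905 to 1288 and 186 to 279 CPM. The sixth, Mmp7, was higher in Adenoma (log2 fold change 1.91 ± 0.14 SE, adjusted p = 9.54e-06 by edgeR). With a mean of 704 CPM it made up most of the Adenoma sum. All 5 enterocyte markers were lower, with sums of 2156 to 2908, 2.44 to 3.21 and 0.978 to 2.04 CPM. These counts stand beside 20.1% of all genes called lower. The summed level of the 8 tuft members was 10.1 to 17 CPM in MIN, 6.6 to 9.3 in Adenoma and 7.03 to 16.5 in Sulindac. Its groups overlapped between MIN and Sulindac. Most of it was Avil in Adenoma (5, 6.45 and 7.28 CPM) and in Sulindac (6.1, 7.06 and 16 CPM), but not in MIN (2.53, 2.16 and 3.7 CPM). Dclk1, Trpm5 and Pou2f3 were each higher in every MIN sample than in every Adenoma or Sulindac sample. The share of all genes separated in this way was not counted. Between Adenoma and MIN, 57.8% of 13744 genes had an unadjusted p under 0.05 by edgeR, so differences between these groups were common.

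Cells other than epithelium express some of these genes. The 11 leukocyte and mast cell markers summed to 5.04 to 6.78 CPM in MIN, 8.41 to 16.7 in Adenoma and 3 to 4.33 in Sulindac, and 6, 7 and 8 of them were at or under the floor in these groups. Ptprc, the pan-leukocyte marker, had 0, 1 and 0 counts in MIN, 8, 4 and 4 in Adenoma and 0 in each Sulindac sample. The mast cell marker Cpa3 had 0 counts in all 9 samples. Of the 3 list members tested between Adenoma and MIN, Cd68 was higher in Adenoma (2.79 ± 0.35 SE, adjusted p = 0.000193 by edgeR), while Itgam (-4.02 ± 0.38 SE, adjusted p = 3.7e-05 by edgeR) and Lyz2 (-5.07 ± 0.72 SE, adjusted p = 0.000434 by edgeR) were lower. Cd68 was also lower in Sulindac than in Adenoma (-1.78 ± 0.27 SE, adjusted p = 0.00193 by edgeR). The part of these cells in the values of Vav1 and of the other tuft genes was not tested. The 5 mesenchyme markers summed to 0.385 to 0.763 CPM in MIN, 1.97 to 2.37 in Adenoma and 0.825 to 1.08 in Sulindac. Of these, Col1a2 and Col3a1 were at 0 throughout, whereas Pdgfra had 5, 8 and 6 counts in MIN, 28, 39 and 25 in Adenoma and 20, 12 and 20 in Sulindac and was called higher in Adenoma than in MIN (2.49 ± 0.36 SE, adjusted p = 0.000492 by edgeR). Col1a1 had 13, 10 and 22 counts in MIN, 40, 32 and 54 in Adenoma and 11, 13 and 17 in Sulindac, and was not called between Adenoma and MIN (1.68 ± 0.43 SE, adjusted p = 0.0101 by edgeR) but was lower in Sulindac than in Adenoma (-1.48 ± 0.33 SE, adjusted p = 0.00975 by edgeR). The part of mesenchyme in the tuft gene results was not tested. The 5 neuron markers, a class that also uses Dclk1 and Avil, summed to 6.21 to 10.2 CPM in MIN, 0.463 to 0.503 in Adenoma and 0.833 to 1.28 in Sulindac. Ret made up most of this sum, and their part in the Dclk1 result was not tested.

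**Figure D3:**
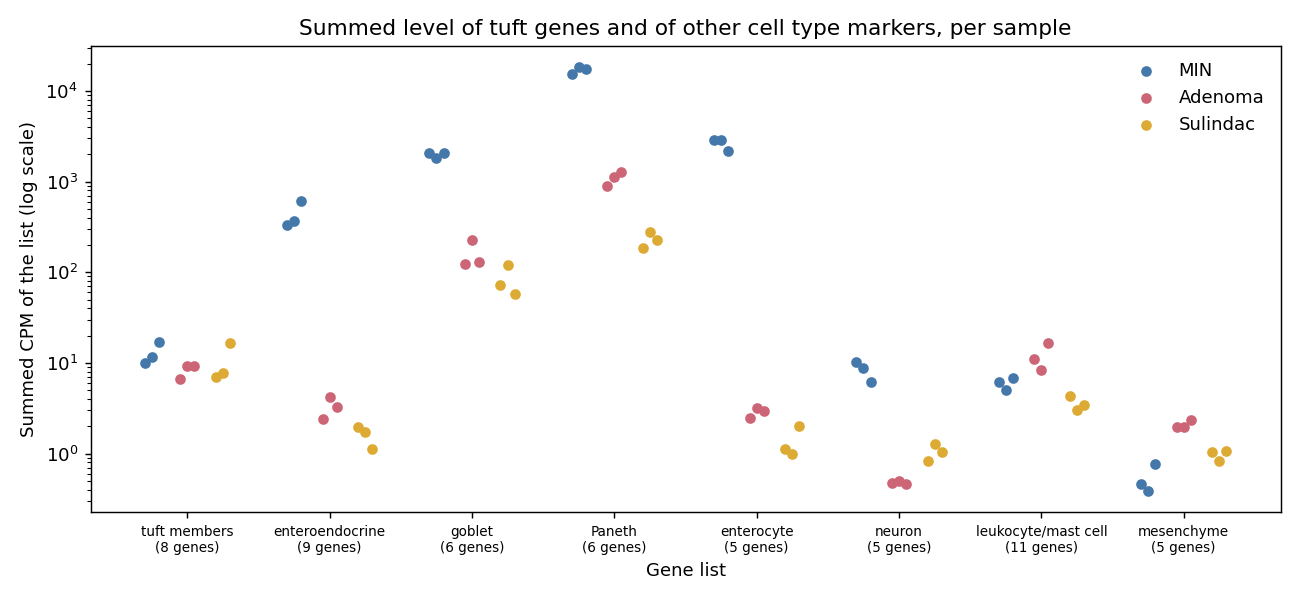
Summed CPM of the 8 tuft members with a row and of 7 lists of markers for other cell types, in each of the 9 samples, on a log scale. Enteroendocrine, goblet, Paneth and enterocyte sums are highest in MIN by a wide margin, while the tuft sums of MIN (10.1 to 17 CPM) and Sulindac (7.03 to 16.5 CPM) overlap. Avil makes up most of the tuft sum in Adenoma and Sulindac, but not in MIN.

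The genes with the pattern most like each member were found by Pearson's r of log2(CPM + 0.5) over the 9 samples, among 13891 genes. This r is a description, since the 9 points fall into 3 groups and any gene high in MIN alone scores well. For Pou2f3 the 5 closest were Lyz1 (0.998), Defa17 (0.997), Defa22 (0.997), Spink4 (0.997) and Gm10104 (0.995), of which Lyz1 and the defensins are Paneth cell genes. For Trpm5 they were Cyp2d10 (0.985), Pmel (0.985), Spib (0.981), Stab2 (0.981) and Hpd (0.97). Spib is itself on the wider tuft list. For Dclk1 they were P4htm (0.995), Igfbp2 (0.994), Ankrd35 (0.993), Shcbp1l (0.993) and Slit2 (0.993). Among the members, r was 0.959 for Dclk1 with Pou2f3, 0.902 for Trpm5 with Pou2f3 and 0.887 for Dclk1 with Trpm5, and Avil had -0.853 with Pou2f3.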

How the data were processed

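Per the labels, RNA of 9 organoid cultures was extracted with a miRNeasy kit and sequenced with standard Illumina libraries. The authors deposited 1 table of raw counts per gene symbol, whole numbers with no normalization. The submitters' processing notes name Bowtie2 2.2.4, RSEM and mm9, with the annotation and strand setting not given in the sources used here. MIN replicate 1 has 3 columns, of which the last is the sum of the others in all 23955 rows and was used. From these counts, edgeR 4.0.16 in R 4.3.3 (filterByExpr, TMM, glmQLFit with robust estimation, glmQLFTest) compared 2 groups at a time, with the SE as the absolute log2 fold change over the square root of F. The members and gene lists were chosen with earlier results of these data known. All members were named. Of the wider list, genes called without overlap were named by size of change, up to 12 per comparison, with others by role. Plcb2 and the single leukocyte and mesenchyme markers were named after their values were seen. On simulated counts for Adenoma and MIN (13744 genes), 53 of 98 genes changed 2-fold and 88 of 102 changed 4-fold were recovered, with 2 false calls. Sequence sharing was counted over 50-base stretches of GENCODE M21 transcripts. Alternatives were RLE factors, library size alone, other filters, all 9 samples in 1 fit, a replicate block, DESeq2 1.42.0, an FDR of 5% and leaving out each sample. Intervals and floors cover counting error only.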

Additional observations from a re-analysis of the deposited data

How the results depend on the processing

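The fold changes of Dclk1, Trpm5, Pou2f3 and Avil, where tested, turned sign under no alternative run. Adenoma over MIN called 1 member higher, but 0 with all 9 samples in 1 fit and 0 to 1 when 1 sample was left out, and 2 lower, but 1 with at least 10 counts in every sample, which removes Dclk1, and 3 with the replicate block, DESeq2 or an FDR of 5%, where Trpm5 passed. Of the wider list, the 9 called lower became 5 with at least 10 counts and 14 at an FDR of 5%. Sulindac over Adenoma called 0 members lower, but 1 (Trpm5) with DESeq2, at an FDR of 5%, with all 9 samples, without the low-count filter, with at least 10 counts and with library size alone, and 0 to 1 when 1 sample was left out. The 2 of the wider list called lower became 6 with library size alone, 5 with DESeq2, 7 at an FDR of 5% and 1 to 4 when 1 sample was left out. Sulindac over MIN called 1 member higher, 0 to 1 when 1 sample was left out, and 3 lower, but 1 with at least 10 counts, where the wider list fell from 13 to 4. That filter tests fewer genes, and the cause of the other changes was not tested. Over all genes, DESeq2 called 1778 higher and 1766 lower for Sulindac over Adenoma, and library size alone shifted the median of Adenoma over MIN to 0.12. Leaving out 1 sample gave 423 to 1403 higher and 386 to 1488 lower for Sulindac over Adenoma. Same-numbered samples correlated at 0.0783, 0.0536 and 0.171 for Adenoma and MIN. For Sulindac and Adenoma they correlated at 0.248, 0.224 and -0.009, and for Sulindac and MIN at -0.0541, 0.251 and 0.143. The means of these pairs were 0.101, 0.154 and 0.114 in the same order, all positive. Each comparison had a pair under 0.1 and the labels name no pairs, so the numbers were not taken as pairs. That cut is no test of pairing, which was not tested. With a replicate block Trpm5 passed in Adenoma over MIN (-1.22, adjusted p = 0.00929 by edgeR), and the counts over all genes were 872 higher and 1061 lower for Sulindac over Adenoma. At this depth Il25, Gfi1b and Gnat3 could not be compared.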
